A study of Mus musculus with 2 samples.

Results

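The C1q macrophages described here were 165 of the 7438 immune cells in the CD45-positive library of a mouse lung adenocarcinoma study, which deposited 15389 cells in all. They were chosen by counts of unique molecular identifiers (UMI, counted transcripts). A member had at least 15 UMI summed over C1qa, C1qb and C1qc, at most 5 UMI over the alveolar macrophage genes Ear2, Plet1, Atp6v0d2, Ctsk and Mrc1, and at most 2 UMI over the T and B cell genes Cd3d, Cd3e, Cd3g, Cd79a and Cd79b, within the class that the authors' cell table names Immune. The levels of these 13 genes are therefore given as a description.

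The study asked how IL-33 signalling alters the diversity of regulatory T cells in lung adenocarcinoma. Lung tumour tissue of C57BL/6 mice was brought to single cells, and magnetic beads against CD45, the leukocyte surface phosphatase, parted these into a Cd45_positive and a Cd45_negative fraction. Each fraction gave 1 library on a droplet platform that reads the 3' ends of transcripts. Both share strain and tissue, and the sources used here do not give a treatment, the age, number or further genotype of the mice, or the tumour model and stage. Cell names of both libraries begin with LucOS, a label whose meaning was not read further here.

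C1q is the recognition molecule of the classical complement pathway, built from chains A, B and C, and in most tissues it is made by resident macrophages. It binds immune complexes and dying cells and tags them for uptake. In the lung, macrophages of the interstitium and of tumours carry C1q, whereas the macrophages of the airspace, which recycle surfactant, carry little of it. PU.1 is a transcription factor of the myeloid lineage, and Ccl8 and Ccl12 are chemokines that draw monocytes and T cells.

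The 3 chain genes lie side by side on chromosome 4, and Ccl8 and Ccl12 lie near each other on chromosome 11. RefSeq promoter entries of build GRCm38.p6 were found for 4 of the 5 genes that mark the cells (C1qb, C1qc, Ccl8 and Ccl12). The 250 bases before each start are printed 5′ to 3′ on the gene's strand, because the C1q chains chose the cells, Ccl8 and Ccl12 were given as their further markers, and Spi1, the gene of PU.1, was read in 129 of the 165 members. Capitals mark GAGGAA, the core bound by PU.1, or its reverse complement TTCCTC. Each of these 4 windows held 1 match, so none overlapped.
C1qb, chr4:136886201-136886450, minus strand: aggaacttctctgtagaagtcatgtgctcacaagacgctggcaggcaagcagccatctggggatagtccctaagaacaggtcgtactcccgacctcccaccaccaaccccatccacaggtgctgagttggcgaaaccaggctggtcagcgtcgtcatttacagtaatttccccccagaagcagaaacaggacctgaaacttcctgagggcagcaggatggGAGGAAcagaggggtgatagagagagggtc
C1qc, chr4:136892915-136893164, minus strand: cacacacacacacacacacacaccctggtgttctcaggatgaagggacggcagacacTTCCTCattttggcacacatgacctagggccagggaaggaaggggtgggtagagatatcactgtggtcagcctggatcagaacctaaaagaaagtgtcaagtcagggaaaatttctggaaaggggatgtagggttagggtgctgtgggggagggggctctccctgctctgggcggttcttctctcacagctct
Ccl8, chr11:82114935-82115184, plus strand: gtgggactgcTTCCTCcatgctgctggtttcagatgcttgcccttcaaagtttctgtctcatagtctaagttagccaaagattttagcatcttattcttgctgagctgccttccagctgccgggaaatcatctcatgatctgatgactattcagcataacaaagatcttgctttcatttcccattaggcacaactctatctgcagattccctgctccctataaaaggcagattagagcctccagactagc
Ccl12, chr11:82101595-82101844, plus strand: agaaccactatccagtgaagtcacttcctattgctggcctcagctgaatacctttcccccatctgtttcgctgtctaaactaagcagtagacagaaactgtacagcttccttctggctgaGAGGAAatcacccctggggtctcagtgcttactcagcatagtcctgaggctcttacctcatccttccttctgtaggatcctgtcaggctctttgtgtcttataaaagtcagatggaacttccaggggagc
GAGGAA lay at bases -30 to -25 before C1qb, counted back from the start, and at -130 to -125 before Ccl12. It lay on the opposite strand at -193 to -188 before C1qc and at -240 to -235 before Ccl8. Of all 32851 RefSeq windows of this length, 23.25% held GAGGAA on either strand. A match of these letters is a description of the sequence and does not show binding.

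Few of the immune cells lay near the threshold on C1q, but it did not fall in a gap. Of the 7438 immune cells, 6523 had no UMI of the 3 chains and 31 had 10 to 14. A total of 235 cells reached 15, of which 11 were left out for alveolar macrophage genes and 59 for T or B cell genes. The members had between 15 and 178 C1q UMI, with a median of 49 and quartiles at 28 and 73. Just inside the threshold lay 22 members with 15 to 19 C1q UMI, and just outside it 20 cells with 10 to 14 that met the other limits. At the other limits, 29 members had 2 lymphocyte UMI while 10 excluded cells had 3, and 2 members had 5 alveolar UMI while 3 excluded cells had 6. The members made up 2.22% of the immune class (exact 95% interval 1.90% to 2.58%), and they held 57.3% of the 16030 C1q UMI of the library. Another 22.9% lay in the immune cells past 15 that the other limits removed, 10.1% in cells of other deposited classes and 9.71% in the remaining immune cells.

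In the CD45-negative library 1 of 108 immune cells passed the same rule (0.926%, exact 95% interval 0.0234% to 5.05%). That cell had 12113 UMI, among them 404 of Apoe, 781 of Cd74, 16 of Ms4a7, 3 of Ccl12 and none of Ccl8. It was not used in any comparison. The libraries shared 57 cell barcodes, 3 of them of members. With 1 library of immune cells there were no replicates, so no test between cell groups was made. Intervals cover counting error only, cells are not replicates, and called means at least a 2-fold ratio.

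The members had a median of 4088 UMI (range 2236 to 9164) and 1406 genes per cell, and a median of 3.43% mitochondrial UMI. They were compared within the library with 685 alveolar macrophages (median 4147 UMI), 75 classical monocytes (2919 UMI) and 38 conventional dendritic cells (3795.5 UMI), each chosen by counts of a few marker genes. The 2469 T cells (median 3062 UMI) and 619 B cells (3828 UMI), which should lack macrophage transcripts, gave a background level. They were held to at most 14 C1q UMI, which leaves out lymphocyte droplets rich in C1q, so this level does not include all that shared droplets can add. No doublet caller was used and no doublets were removed. Levels are CPM, the share of a gene in the summed UMI of a group scaled to counts per 1000000, and since the UMI come from 3' ends they were not scaled to transcript length. Of 339 listed genes outside the rule, 149 had at least 10 UMI in the members and a level at least 2-fold above both T and B cells.

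The C1q chains, which chose the members, are described without a comparison. C1qa reached 4718 CPM, C1qb 4727 CPM and C1qc 3327 CPM, against 12.1, 12 and 8 CPM in T cells. Per cell, C1qa ranged from 2.43 through a median of 40.3 to 146 UMI per 10000 UMI of the cell, and the lowest member had 1 C1qa UMI. Of the C1q UMI, 36.9% were C1qa, 37.0% C1qb and 26.1% C1qc, and in T cells the shares were 37.7%, 37.4% and 24.9%. The exact intervals of the T cell shares, from 281 C1q UMI, were 32.0% to 43.7%, 31.7% to 43.3% and 19.96% to 30.4%. T cells were held to at most 14 C1q UMI, so the shares of both groups are a description only. A UMI of C1qa was seen in 2.997% of T cells and 4.20% of B cells.

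The label was set beside genes that mark tissue macrophages and that the rule did not use. Their list was drawn up with earlier results of these data known, so it is not an independent check. Against alveolar macrophages, the members passed the 2-fold mark upward for 332 of 6156 genes (5.39%) and downward for 698 (11.3%). Of the 14 core macrophage genes tested there, 11 were higher and 1, the efferocytosis receptor gene Mertk, was lower. Their median log2 ratio was 1.80, beside -0.17 over all genes tested. Against classical monocytes, 254 of 2100 genes (12.1%) were higher and 121 (5.76%) lower, and 7 of 13 core genes were higher and none lower, with a median log2 ratio of 1.06 beside -0.07 over all. Against dendritic cells, 328 of 1948 genes (16.8%) were higher and 69 (3.54%) lower, and 11 of 12 core genes were higher and none lower, with a median of 3.94 beside 0.04. The name C1q macrophages was kept on these genes, although Ccl8 and Ccl12, which were given as further markers, were read in a minority of the members. These sums are over all members, and a small sub-cluster described further on had no UMI of the core genes Ms4a7 and Fcgr1. Every count of listed genes further on is to be read beside the shares over all genes given here.

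Ms4a7, a membrane protein gene of macrophages, stood at 649 CPM in the members, 23.8 CPM in alveolar macrophages, 12.8 CPM (3 UMI) in monocytes, 6.35 CPM (1 UMI) in dendritic cells and 2.86 CPM in T cells. A Ms4a7 UMI was seen in 90 members (54.5%, exact 95% interval 46.6% to 62.3%), and in 0.810% of T cells. After every cell was thinned to 1000 UMI, which dropped 0 cells, these shares were 32.7% and 0.324%. Per cell it ranged from 0, in 75 members, through a median of 2.43 to 55.3 UMI per 10000. Its level was 27.2-fold that of alveolar macrophages (95% interval 21.3 to 35.3) and 50.7-fold that of monocytes (17.3 to 247).

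Csf1r, the receptor for the growth factor on which macrophages depend, was read in 116 members and stood at 321 CPM, 3.31-fold its level in alveolar macrophages and 1.64-fold that in monocytes. Adgre1, which encodes the F4/80 antigen, stood at 168 CPM in the members, 89.5 CPM in monocytes and 66.9 CPM in alveolar macrophages. The fractalkine receptor gene Cx3cr1, high in interstitial macrophages and monocytes, stood at 212 CPM in the members and 158 CPM in monocytes, with a ratio of 1.34 whose interval (0.932 to 1.98) included equal levels. In alveolar macrophages it was at 2.90 CPM. Cx3cr1 was thus shared with monocytes at this depth, whereas Ms4a7 separated them.

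**Figure D1:**
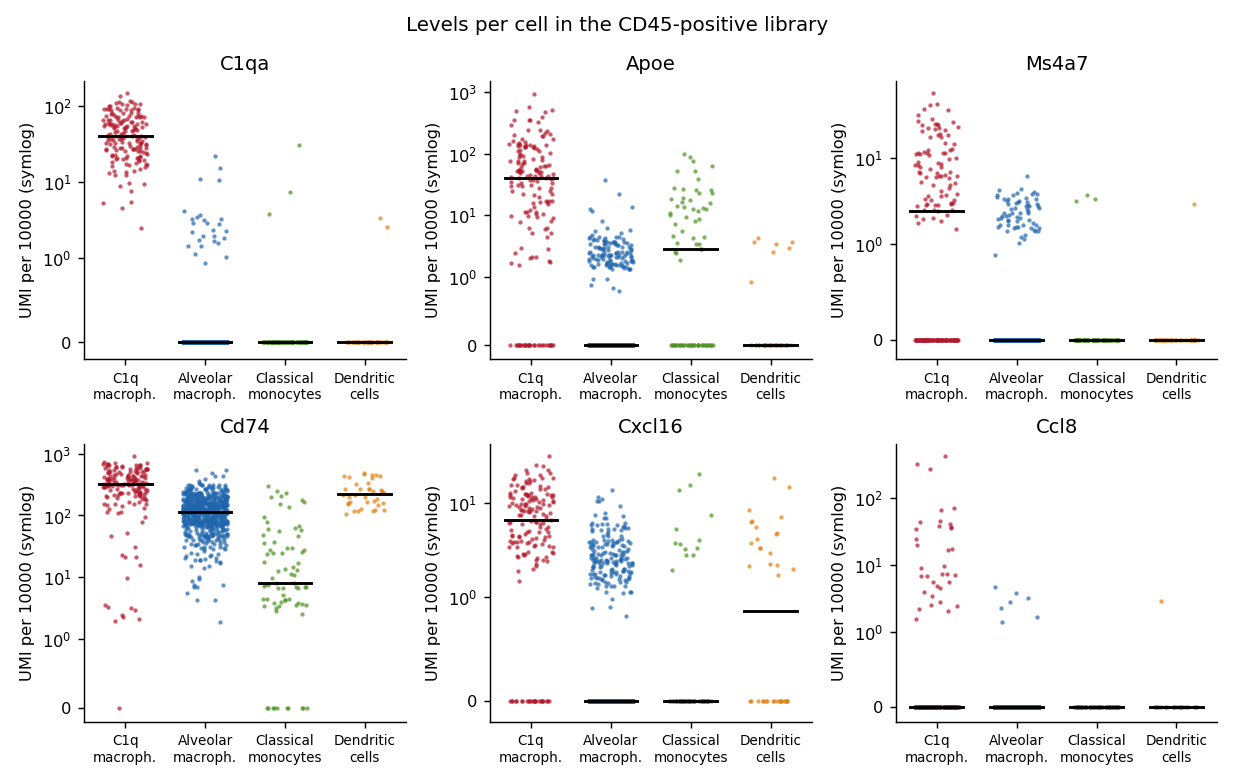
UMI per 10000 UMI of each cell (symmetric log axis) for C1qa, Apoe, Ms4a7, Cd74, Cxcl16 and Ccl8 in the 165 C1q macrophages, 685 alveolar macrophages, 75 classical monocytes and 38 conventional dendritic cells; points are cells and bars are medians. C1qa was used to choose the members, Cd74 reached high values in members and dendritic cells alike, and Ccl8 was at 0 in 130 of 165 members.

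Apoe, a lipid carrier that macrophages secrete, had the fourth highest ratio over alveolar macrophages among the genes named by the rule. It reached 8348 CPM in the members, 1069 CPM in monocytes, 59.5 CPM in alveolar macrophages, 50.8 CPM in dendritic cells, 104 CPM in T cells and 586 CPM in B cells. Per cell it ran from 0, in 27 members, through a median of 39.8 to 945 UMI per 10000, while the median alveolar macrophage had 0 and the median monocyte 2.85. The level was 140-fold that of alveolar macrophages (95% interval 121 to 163) and 7.81-fold that of monocytes (6.88 to 8.89). Without the 3 members richest in Apoe the first ratio was 116.

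The genes with the highest ratios over alveolar macrophages, with at least 200 UMI in both groups together, were led by Cxcl13, which attracts B cells, and Ccl12 and Ccl8, followed by Apoe, the acute phase gene Saa3, Aif1, Retnla, Ms4a7 and Pf4. Aif1, an actin-binding protein of macrophages also called Iba1, stood at 893 against 17.1 CPM and was read in 132 members. Its ratio of 52.4 (39.5 to 70.7) changed little without its 3 richest cells, at 48.1. Pf4, the chemokine platelet factor 4, had a ratio of 23.0, which was 7.38 without the 14 cells of the small sub-cluster described further on.

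The 10 genes lowest relative to alveolar macrophages were Ear1, an eosinophil-associated ribonuclease, the keratin gene Krt79, the fatty acid binding protein gene Fabp1, Gal, Chil3, Ly75, Phgdh, Slc39a2, Spag11b and Fpr1. Of these, 4 (Ear1, Krt79, Fabp1 and Chil3) are on the alveolar macrophage list. Chil3, a chitinase-like protein of alveolar macrophages, stood at 10508 CPM there and at 109 CPM in the members, 96.8-fold lower (77.5 to 123). T cells had 518 CPM of Chil3, so the members were below the level in T cells. Of 13 listed alveolar macrophage genes outside the rule, 11 were at least 2-fold lower and none higher. Fpr1 had no UMI in the members and was at least 29.8-fold lower, with 0 set to 3 counts.

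Relative to classical monocytes the members had higher levels of most lysosomal and MHC class II genes tested, as given further on. Ccl8 had no UMI in monocytes and was at least 97.1-fold higher in the members. Pf4 was 71.8-fold, Ms4a7 50.7-fold, the tetraspanin genes Cd63 and Cd81 29.0-fold and 26.1-fold higher, and Cxcl13 and Saa3, also without UMI in monocytes, at least 26.1-fold and 24.3-fold. Without the 3 members richest in each gene these bounds were 26.4 for Ccl8, 6.53 for Cxcl13 and 10.8 for Saa3, and the small sub-cluster held 86.1% of the Saa3 UMI. Without that sub-cluster the ratio of Pf4 was 23.0. The lowest ratios were those of Plac8, a monocyte gene (93.2 against 6429 CPM, 68.9-fold lower), Chil3 (8.91-fold lower) and Ifitm3, an interferon-induced antiviral gene (739 against 6394.5 CPM, 8.65-fold lower). Mgst1, Tmsb10, S100a4, Ifi27l2a, S100a6, Ms4a6c and Ifitm2 were 3.28-fold to 5.36-fold lower. All 4 classical monocyte genes tested, among them Plac8, Hp and Ms4a4c, were lower. Ccr2, used to choose the monocytes, stood at 164 CPM in the members and was read in 59 of them, against 1014 CPM in the monocytes and 18.0 CPM in alveolar macrophages.

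Relative to conventional dendritic cells the members were set apart by Ccl8, Apoe, the protease inhibitor gene Slpi, Ms4a7, Pf4, the fibronectin gene Fn1, the lysosomal protease gene Lgmn, Retnla and the haemoglobin gene Hba-a2. Apoe had a ratio of 164 (83.3 to 381). Without the 3 members richest in each gene the ratio of Ccl8 was 53.0 in place of 195 and that of Slpi 39.7 in place of 146. For Pf4 it was 67.2 in place of 96.3, and for Hba-a2 4.82 in place of 122. Slpi had no UMI in 118 members, and the small sub-cluster held 90.2% of its UMI. Ms4a7 was represented by 1 UMI in the 38 dendritic cells and had a ratio of 102.1 with a wide interval (18.2 to 4041). Fn1 had a ratio of 92.2, which was 19.3 without the small sub-cluster, and Retnla one of 38.3, which was 2.63 without its 3 richest cells. Lower in the members were Ccl17, a T cell chemokine of mature dendritic cells (408 against 5272 CPM, 12.9-fold lower), Plac8, S100a4, Lsp1, S100a6, Tmsb10, H2afy, Syngr2, Ifitm3 and Lgals1, all but Ccl17 and Plac8 by less than 5-fold.

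**Figure D2:**
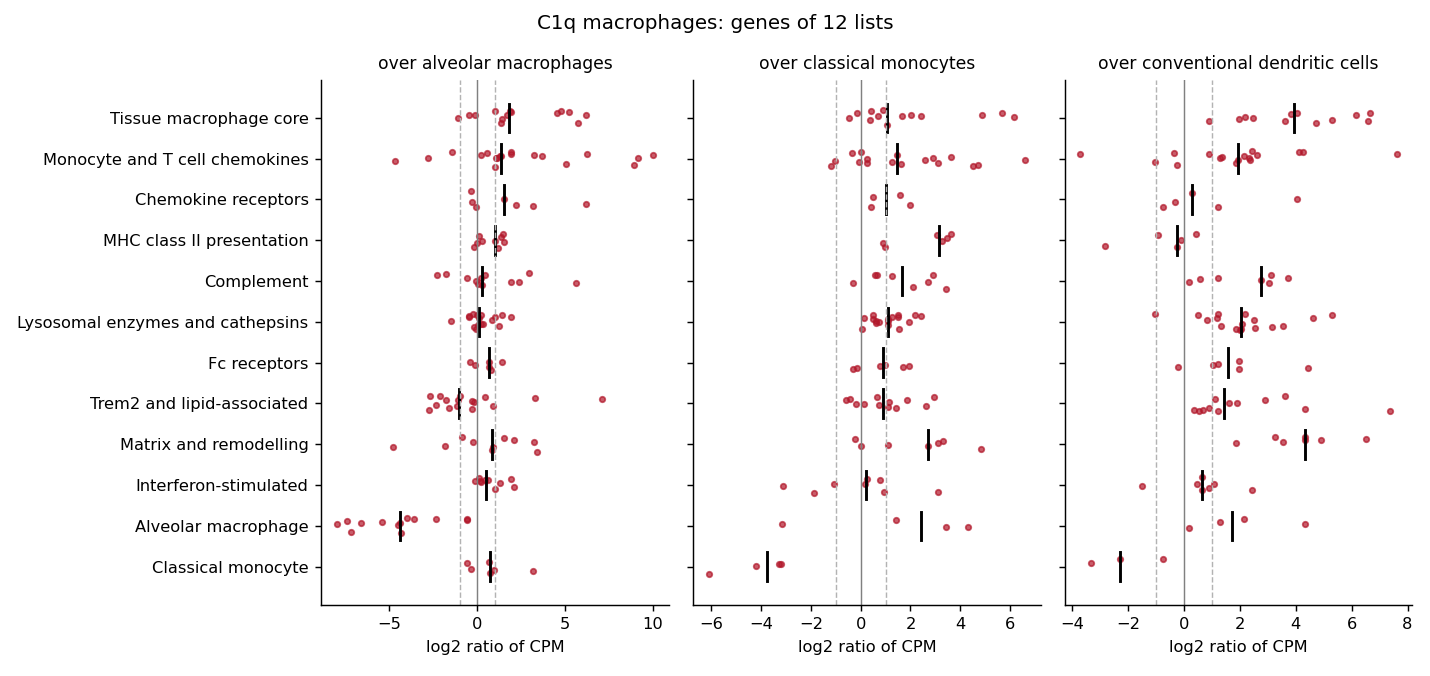
Log2 ratio of CPM of the C1q macrophages over alveolar macrophages, classical monocytes and conventional dendritic cells for the tested genes of 12 lists; points are genes, black bars list medians and dashed lines the 2-fold marks. The core macrophage and chemokine medians lie above 0 in all 3 panels. The MHC class II median lies at 3.15 over monocytes (6 genes) and at -0.24 over dendritic cells (5 genes). The latter leaves out H2-Aa, H2-Ab1 and H2-Eb1, which chose the dendritic cells, so the 2 medians are over different genes.

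Most chemokine genes tested were higher in the members than in each of the other myeloid groups. Of 19 genes tested against alveolar macrophages, 13 were higher and 3 lower, with a median log2 ratio of 1.35. Against monocytes 10 of 17 were higher and 2 lower (median 1.45), and against dendritic cells 12 of 17 were higher and 2 lower (median 1.95). Over all genes tested, 5.39%, 12.1% and 16.8% were higher, in that order. The higher chemokines include Ccl8 and Ccl12, which were given as markers of the cells, in all 3 comparisons. Without the small sub-cluster the medians were 1.22, 1.57 and 1.33. Lower than in alveolar macrophages were Cxcl3, Ccl6 and Cxcl14, lower than in monocytes Ccl6 and Ccl9, and lower than in dendritic cells Ccl17 and Ccl5.

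Cxcl16, the ligand of Cxcr6 on T cells, was the chemokine read in the largest share of members. It stood at 772 CPM, against 81.8 in alveolar macrophages, 128 in monocytes, 318 in dendritic cells and 27.9 in T cells. A UMI was seen in 141 members (85.5%) and in 5.63% of T cells, and after thinning in 48.5% and 1.70%. Per cell it ran from 0, in 24 members, through a median of 6.58 to 31.4 UMI per 10000. The ratio over alveolar macrophages was 9.45 (8.13 to 11) and that over dendritic cells 2.43 (1.82 to 3.32), so Cxcl16 separated the members from the airspace macrophages more than from dendritic cells.

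Cxcl2, a neutrophil chemokine, stood at 1442 CPM in the members, 575 CPM in alveolar macrophages and 525 CPM in T cells. Its ratio over alveolar macrophages was 2.51, and 1.597 without the small sub-cluster. The interferon-inducible Cxcl9, a ligand of Cxcr3, stood at 483 CPM in the members, 243 in alveolar macrophages, 55.4 in monocytes and 260 in dendritic cells. Its ratio of 1.99 over alveolar macrophages lay just under the 2-fold mark. Ccl2, a main ligand of Ccr2, stood at 118 CPM in the members and 98.0 CPM in monocytes, with a ratio of 1.21 (0.754 to 2.01) that included equal levels. Ccl7, another ligand of Ccr2, stood at 96.0 CPM in 23 members, had no UMI in monocytes or dendritic cells and was at 2.90 CPM in alveolar macrophages.

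Among chemokine receptors, 4 of 7 genes tested were higher than in alveolar macrophages, among them Cx3cr1, Ccr2 and the scavenging receptor gene Ccrl2, and none was lower. Against monocytes 2 of 4 were higher, with Ccrl2 among them, and against dendritic cells Cx3cr1 and Ccrl2, among 5 tested.

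**Figure D3:**
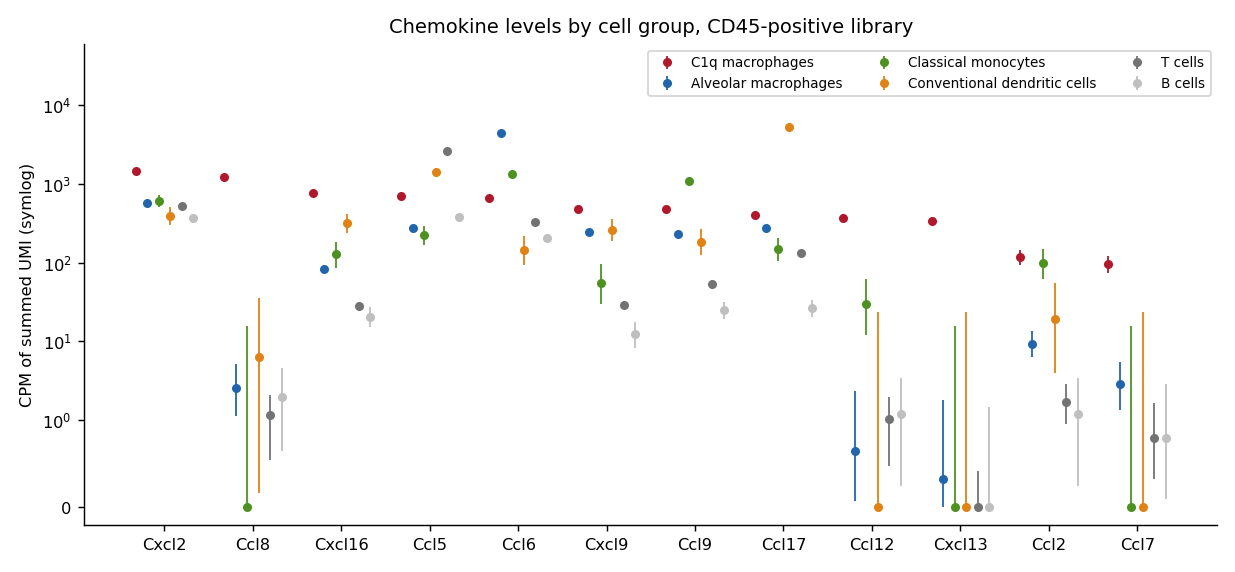
CPM (symmetric log axis) of 12 chemokines in the summed UMI of each cell group of the CD45-positive library; bars are exact 95% Poisson intervals for counting error and are hidden by the point where narrow. Ccl8, Ccl12 and Cxcl13 were highest in the C1q macrophages, while Ccl6 was highest in alveolar macrophages and Ccl17 in conventional dendritic cells.

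The marker chemokines came from few cells. Ccl8 reached 1241 CPM, yet a Ccl8 UMI was seen in only 35 members (21.2%, exact 95% interval 15.2% to 28.2%), and 3 cells with 304, 206 and 140 UMI held 72.9% of it. Without those UMI the level was 337 CPM and the ratio over alveolar macrophages 131 in place of 482 (244 to 1120). In T cells 0.365% of cells had a Ccl8 UMI. After thinning, the shares were 13.3% and 0.203%.

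Ccl12 was spread more evenly. It reached 367 CPM in 38 members (23.0%), against 0.284% of T cells, and 12.1% and 0.122% after thinning. The 3 richest cells, with 35, 35 and 27 UMI, held 36.7% of it, and without them the ratio over alveolar macrophages was 361 in place of 571 (156 to 4737, 2 UMI in the alveolar macrophages). No UMI of either chemokine was seen in 105 of the 165 members. Ccl12 was read in 37.1% of members with Ccl8 and in 19.2% of those without, and Cxcl9 in 54.3% and 30%. The median depths of members with and without Ccl8 were 4066 and 4093.5 UMI.

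Cxcl13 rested on fewer cells still, with 240 UMI in 11 members, of which 1 cell held 54.2%. Neither T nor B cells had a Cxcl13 UMI, and alveolar macrophages had 1. The ratio over alveolar macrophages was 1038 (184 to 41156) and 259 without the 3 richest cells, 2 of which were also among the 3 richest in Ccl8. Retnla, a gene of the alternatively activated state, reached 973 CPM, but 1 cell held 80.4% of its UMI, and without the 3 richest cells the ratio over alveolar macrophages was 2.39 in place of 34.7, and that over monocytes 1.74 in place of 25.4. In contrast, 50% of the UMI of Cd74 needed the 46 richest members, and those of Apoe the 16 richest. For C1qa it was the 42 richest, but the rule asked C1q UMI of every member, so its spread was partly set by the choice.

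**Figure D4:**
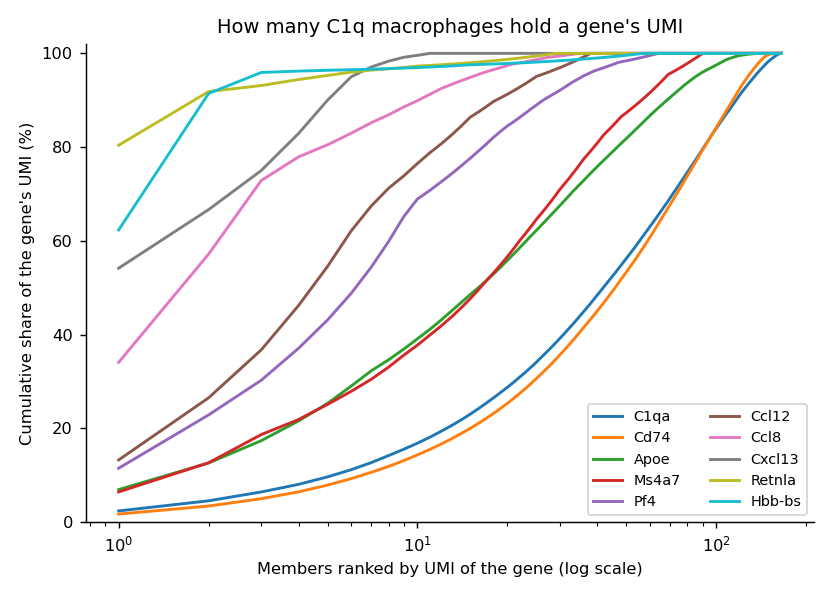
Cumulative share (%) of a gene's UMI in the 165 C1q macrophages, ranked from the cell with the most UMI (log axis), for 10 genes. The 3 richest cells held 6.43% of C1qa and 17.4% of Apoe UMI, but 72.9% of Ccl8, 75% of Cxcl13, 93.1% of Retnla and 95.9% of Hbb-bs. C1qa was used to choose the members, so its even spread is partly set by the rule.

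Complement genes other than the chains were mostly at modest levels. Of 12 tested against alveolar macrophages, 4 were higher, among them Cfp, C3ar1 and Itgam, and C1ra and Cfb were lower, with a median log2 ratio of 0.26. Over all genes tested there, 5.39% were higher and 11.3% lower. C3ar1, the receptor for the anaphylatoxin C3a, stood at 128 CPM in 62 members against 2.57 CPM in alveolar macrophages and 17.0 CPM in monocytes, and had no UMI in dendritic cells. Its ratio over alveolar macrophages was 49.7 (24.2 to 119). Cfp encodes properdin, which stabilises the convertase of the alternative pathway. It stood at 264 CPM and 5.27-fold above alveolar macrophages, and at 2.99-fold without the small sub-cluster. C3, the central component, stood at 159 CPM in the members and 130 CPM in alveolar macrophages, a ratio of 1.22 with an interval (0.980 to 1.502) that included equal levels.

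Genes of the Trem2 and lipid-associated programme, which in tumours and fat tissue marks lipid-handling macrophages, did not move together. Against alveolar macrophages Apoe and the cholesterol exporter gene Abca1 were higher and 8 of 16 were lower, with a median log2 ratio of -1.03. The 8 were Fabp5, Plin2, Spp1, Gpnmb, Cd9, Lpl, Abcg1 and Lipa. Cd9 stood at 469 against 3164 CPM and the lipoprotein lipase gene Lpl at 127 against 642 CPM. Against monocytes 6 of 12 were higher and none lower, and against dendritic cells 8 of 12 higher and none lower. Trem2, a lipid-sensing receptor, stood at 235 CPM in 81 members, 125 CPM in alveolar macrophages and 38.3 CPM in monocytes, and had no UMI in dendritic cells. It was read in 49.1% of members and 2.71% of T cells, and after thinning in 20% and 0.648%.

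Lysosomal protease and glycosidase genes separated the members from monocytes and dendritic cells but little from alveolar macrophages. Against dendritic cells 14 of 17 were higher and 1, the protease inhibitor gene Cst3, lower, with a median log2 ratio of 2.06. Against monocytes 10 of 17 were higher and none lower, with a median of 1.09. Against alveolar macrophages 4 were higher, among them Cst3, Ctsh and Lgmn, and the cathepsin gene Ctsd was lower, with a median of 0.13. Lgmn, an asparaginyl endopeptidase, stood at 505 CPM in the members against 246, 93.7 and 12.7 CPM in the 3 other groups in that order. Ctsd stood at 742 CPM, against 2067 CPM in alveolar macrophages and 162 CPM in monocytes, and so lay between them.

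Receptors for antibody and for dying cells differed by comparison. Of 6 Fc receptor genes only Fcgr1, the high-affinity IgG receptor, was at least 2-fold higher than in alveolar macrophages (124 against 47.0 CPM), while Fcgr4 and Fcgrt were higher than in monocytes and 5 of 6 than in dendritic cells. Of 14 efferocytosis and scavenger genes, Mfge8, Msr1, Stab1 and Cd5l were higher than in alveolar macrophages and Marco, Mertk, Cd300lf and Colec12 lower, and 4 of 5 were higher than in dendritic cells. Over all genes, 5.39% were higher and 11.3% lower than in alveolar macrophages. The shares higher than in monocytes and dendritic cells were 12.1% and 16.8%. Cd5l, a secreted scavenger protein, had 66 UMI in 13 members, 60 of them in the small sub-cluster, and none in any of the 5 other groups.

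Genes that mark the perivascular Lyve1 and Folr2 macrophages of many tissues were scarce. Lyve1 had 13 UMI in 8 members, 18.1 CPM against 6.97 CPM in T cells. Folr2, a folate receptor, had 10 UMI in 7 members and none in the 5 other groups, and Cd163, a haemoglobin scavenger receptor, had 4 UMI. Timd4 had 15 UMI in 7 members. Of this list only Stab1 and Igfbp4 had enough UMI to be compared with alveolar macrophages, and both were higher, Stab1 at 65.4 against 3.86 CPM.

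Antigen presentation genes were among the most abundant transcripts of the members. Cd74, the invariant chain that guides class II molecules, reached 32927 CPM, the highest level of any gene, against 24410 in dendritic cells, 12975 in alveolar macrophages, 3970 in monocytes and 9295 in B cells. Per cell it ran from 0, in 1 member, through a median of 319 to 904 UMI per 10000, while the medians were 225 in dendritic cells, 115 in alveolar macrophages and 8.22 in monocytes. Of 9 MHC class II genes tested against alveolar macrophages, 5 were higher (Cd74, H2-Aa, H2-Ab1, H2-Eb1 and the regulator gene Ciita), at a median log2 ratio of 1.04. Against monocytes 4 of 6 were higher, with a median of 3.15.

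Against dendritic cells none of 5 class II genes was 2-fold higher and H2-DMb2, a subunit that edits peptide loading, was lower (45.9 against 324 CPM, 7.05-fold). The ratio of Cd74 over dendritic cells was 1.35 (1.30 to 1.40). H2-Aa, H2-Ab1 and H2-Eb1 chose the dendritic cells and so were not among these 5 genes. H2-Aa stood at 10636 CPM in the members and 9293 CPM in dendritic cells. Among ligands that costimulate or restrain T cells, Cd86, Cd40 and Vsir were higher than in alveolar macrophages and Sirpa, Cd200r1 and Cd274 lower, of 8 tested. Cd86 stood at 163 against 25.4 CPM, a ratio of 6.404 (4.77 to 8.63). Cd274, which encodes PD-L1, stood at 34.8 CPM in the members and 31.3 CPM in T cells, so it was close to the T cell level. How much of either level was free RNA was not tested.

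Cytokine genes were few. Il1b stood at 706 CPM in the members, 826 CPM in monocytes and dendritic cells and 382 CPM in alveolar macrophages, over a T cell level of 430 CPM. Igf1, a growth factor of tissue macrophages, stood at 110 CPM in 38 members against 44.1 CPM in alveolar macrophages and had no UMI in monocytes or dendritic cells. Tnfsf13b, which encodes the B cell survival factor BAFF, stood at 66.8 CPM in 42 members, 6.29-fold above alveolar macrophages (3.95 to 10.1). Of 13 cytokine genes tested, 6 were higher and 2, Areg and Il18, lower than in alveolar macrophages, with a median log2 ratio of 0.89 that was -0.15 without the small sub-cluster.

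Genes of the IL-33 axis were scarce in the members. Il33 had 2 UMI in 2 cells, and Il1rl1, which encodes the IL-33 receptor ST2, had 4 UMI in 2 cells (5.57 CPM against 17.0 CPM in T cells). Areg, a growth factor gene that IL-33 can induce, had 4 UMI and was 5.204-fold lower than in alveolar macrophages (1.96 to 19.5). Of the 10 genes of the list, 4 could be compared with alveolar macrophages, none was higher and Areg was lower, and none had enough UMI for a comparison with monocytes or dendritic cells.

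Among genes of the response to IL-4, Mgl2, a lectin of dendritic cells and some macrophages, stood at 223 CPM in 62 members, 400 CPM in dendritic cells, 4.26 CPM in monocytes and 3.54 CPM in alveolar macrophages. Arg1 had 6 UMI. Mrc1, which encodes the mannose receptor and was used to limit the members, had 47 UMI (65.4 CPM) against 348 CPM in alveolar macrophages.

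Matrix genes were higher than in dendritic cells for 7 of 7 genes tested (median log2 ratio 4.32) and than in monocytes for 5 of 7 (2.69), with none lower. Without the small sub-cluster 5 were still higher than in monocytes and 2 were lower, and the ratio of Fn1 was 0.213 in place of 1.02. Against alveolar macrophages 4 of 10 were higher (Fn1, Thbs1, Ecm1 and Timp2) and 2 lower (Mmp19 and Mmp8), but without the small sub-cluster 2 were higher and 3 lower. Timp2, an inhibitor of matrix metalloproteinases, stood at 578 CPM in 128 members against 136, 89.5 and 19.1 CPM in alveolar macrophages, monocytes and dendritic cells. Mmp13, a collagenase, had 42 UMI in 26 members, no UMI in those 3 groups and 2 UMI each in T and B cells. Spp1, which encodes osteopontin, stood at 75.1 CPM, with 29 of its 54 UMI in 1 cell, against 64.0 CPM in T cells.

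Of 18 macrophage transcription factor genes, 4 were higher, among them Maf, Runx3 and Klf2, and Tfec, Pparg, Bhlhe41 and Egr2 were lower than in alveolar macrophages. The shares over all genes were 5.39% higher and 11.3% lower. Spi1, which encodes PU.1, stood at 402 CPM in 129 members, close to 342 CPM in alveolar macrophages and 407 CPM in dendritic cells. Pparg, the regulator of the alveolar macrophage programme, had 4 UMI (5.57 CPM against 66.9 CPM). The iron transporter gene Slc11a1, also called Nramp1, was higher than in all 3 groups, at 97.4 CPM against 5.79 CPM in alveolar macrophages, 12.8 CPM in monocytes and no UMI in dendritic cells.

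Interferon-stimulated genes gave no common direction against monocytes, with Cxcl9 higher and Isg15, Ifitm3 and Irf7 lower of 8 tested. Of all genes tested there, 12.1% were higher and 5.76% lower. Cell cycle genes summed to 1138 CPM in the members, against 1366 CPM in alveolar macrophages, 626 in monocytes, 845 in dendritic cells, 1448 in T cells and 864 in B cells. Of 11 tested against alveolar macrophages none was higher and Cks1b, Cdk1 and Birc5 were lower. Against monocytes Stmn1 and Tubb5 were higher of 3 tested (median log2 ratio 1.65), and against dendritic cells Stmn1 of 3. The proliferation marker gene Mki67 had 12 UMI in 10 members, a share of 6.06% beside 6.48% of T cells. Immediate early genes, which dissociation of tissue can induce, were higher than in alveolar macrophages for 8 of 12 genes (median log2 ratio 1.06), and for 4 of 12 without the small sub-cluster. Against monocytes and against dendritic cells 2 of 11 were higher, beside 12.1% and 16.8% over all genes tested. Without the small sub-cluster 1 was higher and 1 lower in each of these comparisons. Whether handling of the tissue had a part in the values of these genes was not tested.

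Markers of other cell types were measured in the same cells. The surfactant gene Sftpc stood at 1767 CPM in the members, 1638 CPM in T cells and 1875 CPM in B cells, and the summed alveolar epithelial list at 2207, 2165 and 2508 CPM. Endothelial genes summed to 255 CPM, against 189 CPM in T and 256 CPM in B cells, neutrophil genes to 967, 1440 and 1253 CPM, and NK cell genes to 55.7, 1147 and 134 CPM. Fibroblast and mesothelium genes summed to 25.05 CPM, from 6 members, against 11.3 and 15.4 CPM. More than 2 UMI of at least 1 of these lists, Sftpc apart, were seen in 83 members. For the neutrophil list that was 25.5% of members, 22.3% of T and 30.05% of B cells, and for the endothelial list 10.3%, 4.86% and 6.95%. For the fibroblast and mesothelium list it was 1.21%, or 2 members, against 0.122% and 0.162%.

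Globin transcripts were also above T and B cells. They summed to 4796 CPM in the members, against 528 CPM in T cells, 299 CPM in B cells and 1164 CPM in alveolar macrophages, and 3 cells with 2271, 947 and 104 UMI held 96.4% of them. In the first cell globin made up 43.6% of all UMI. Without these 3 members the level was 176 CPM, under that of T cells. The positions of Hba-a1, Hbb-bt and Hba-a2 among the highest ratios over monocytes and dendritic cells rested on these cells. The part of uptake of red cells, or of droplets shared with red cells, in these values was not tested.

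The members were not uniform. Clustering them without the genes of the rule gave sub-clusters of 78, 73 and 14 cells (47.3%, 44.2% and 8.48%), with median depths of 4077.5, 4066 and 4569.5 UMI. The genes that lead a sub-cluster were used to form it and are a description.

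The sub-cluster of 78 cells was led by Ccl17, the cystine transporter gene Slc7a11, the IL-1 receptor antagonist gene Il1rn, the prostaglandin synthase gene Ptgs2 and the receptor subunit gene Csf2rb, after leaving aside the globin gene Hbb-bs. It held 96.6% of the members' Ccl17 UMI, 83.2% of Il1rn and 73.6% of Il1b. Ccl17 there stood at 840 CPM, in 20 of 78 cells. Markers of neutrophils moved with it: S100a8 and S100a9 were among its leading genes, and the neutrophil list summed to 1600 CPM, against 300 CPM in the sub-cluster of 73 and 1440 CPM in T cells. The 2 members richest in globin lay there as well, at a summed globin level of 9735 CPM against 503 CPM. The part of other cells in these values was not tested.

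The sub-cluster of 73 cells was led by Ccl12, the lectin gene Clec4b1, Ccl7, Igfbp4, Mgp, Stmn1 and the adhesion gene Cadm1. It held 89.0% of the members' Ccl12 UMI, 68.5% of Ccl8, 65.0% of Ms4a7, 64.5% of Cx3cr1, 67.4% of Fcgr1 and all 10 UMI of Folr2. Ccl12 there stood at 743 CPM, in 27 of 73 cells. C1qa stood at 5957 CPM, against 3855 CPM in the sub-cluster of 78. It was left out of the clustering but chose the members, so these levels are a description. The endothelial list summed to 392 CPM there and to 125 CPM in the sub-cluster of 78, beside 189 CPM in T and 256 CPM in B cells, and the fibroblast and mesothelium list to 56.9 CPM there and to 0 in the other two sub-clusters, beside 11.3 and 15.4 CPM. The cell cycle list, which holds Stmn1, summed to 1619 CPM against 795 CPM. Of the 44 UMI of Mgp in these 73 cells, 1 cell held 23. The part of other cells and of cycling cells in these values was not tested.

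The 14 remaining cells stood apart from both. Prg4, the lubricant proteoglycan, and Alox15, a lipoxygenase that forms lipid mediators, were read in all 14 of them, at 2554 and 1377 CPM, and each in 1 of the 151 other members. They were further led by Fabp4, with all 61 UMI of the members, the coagulation factor gene F5, Cd5l, Slpi, Il6, Itga6, Saa3, Thbs1, Fn1 and Pf4. Fn1 was read in 14 of 14 cells at 5216 CPM and in 19 of 151 others. These 14 cells held 9.10% of the members' UMI but 81.0% of Fn1, 70.9% of Pf4, 90.2% of Slpi, 86.1% of Saa3 and 42.1% of Cxcl2. For Slpi, 1 cell had 352 of 601 UMI.

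These cells had little MHC class II beside the C1q that the rule asked of every member. C1qa stood at 3166 CPM, whereas the MHC class II list summed to 4053 CPM, against 66080 and 75335 CPM in the other sub-clusters. The median cell had 9.84 class II UMI per 10000, against 601 and 784, and 12 of the 14 cells lay under 100 UMI per 10000, against 1 of 78 and 3 of 73. Ccl8, Ccl12, Cxcl9, Ms4a7, Fcgr1 and Mgl2 had no UMI in them, and Trem2 and Cx3cr1 had 1 each. Mrc1, which the rule limited in every member, had no UMI in them either. Adgre1 was present at 291 CPM, and Timd4 in 5 of the 14.

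The same 14 cells formed a cluster at the lower and the higher resolution tried. The mesothelial genes Msln and Upk3b had no UMI in them. At least 5 UMI of Prg4 and Alox15 together were seen in 13 members, 12 of them in the sub-cluster, and in 8 other immune cells of the library, 7 of which had at least 15 C1q UMI and had been left out by the other limits. No immune cell of that library with fewer than 5 C1q UMI reached that level, and of the cells of other classes 1 did in this library and 4 in the other. At a limit of 1 UMI, 47 other immune cells of the library passed. Of these, 35 had fewer than 5 C1q UMI and 9 had at least 15. With 14 cells and 1 library, the number of mice they came from is not known, and they are called here by their leading genes only.

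**Figure D5:**
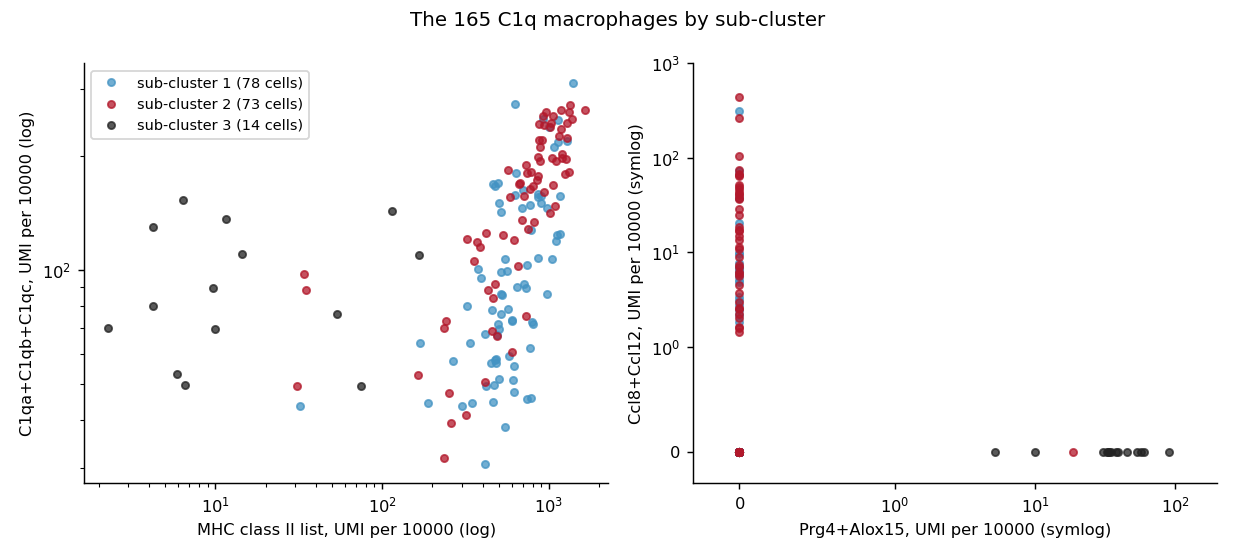
Left, UMI of the 3 C1q chains against UMI of the MHC class II list, both per 10000 UMI of the cell (log axes); right, Ccl8 and Ccl12 against Prg4 and Alox15 (symmetric log axes); points are the 165 C1q macrophages, coloured by sub-cluster. In the left panel 12 of the 14 black cells have under 100 class II UMI per 10000, and in the right panel none of them has Ccl8 or Ccl12.

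Across the members, the share of C1q UMI in a cell went with the share of class II UMI. Spearman's rho over the 165 cells was 0.71, 0.75 without the 14 cells, 0.60 within the sub-cluster of 78, 0.86 within that of 73 and 0.12 within the 14 cells alone. For the lysosomal list it was 0.52, for the classical monocyte list -0.23, for the interferon-stimulated list -0.06, for the alveolar epithelial list -0.0037 and for the total UMI of the cell -0.04. These values describe cells of 1 library, whose lists share the cell's total as denominator. The C1q UMI also chose the members, at 15 or more, so their spread was partly set by the rule. The correlations are a description only.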

How the data were processed

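Deposited were a table of UMI counts per gene and cell of both libraries and a table with 1 of 7 class names per cell. Per the submitters' notes, the authors loaded 6000 cells per channel, sequenced 98 bp reads, and made these counts with Cell Ranger 1.1.0 on mm10. Doublets and free RNA were not corrected, so both can add transcripts of other cells. The labels gave the fraction of each library.

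Members and gene lists were chosen with earlier results of these data known. Comparison groups were immune cells of the same library, chosen by UMI of marker genes. Alveolar macrophages had at least 10 UMI of the genes that limit the members. Classical monocytes had at least 6 UMI of Ly6c2, Ccr2, F13a1 and Vcan and at least 10 of Lyz2, with at most 3 of the neutrophil genes Retnlg, Cxcr2 and Csf3r. Conventional dendritic cells had at least 4 UMI of Flt3, Zbtb46, Cd209a, Xcr1 and Clec9a and at least 20 of H2-Aa, H2-Ab1 and H2-Eb1. T and B cells had at least 4 UMI of the Cd3 genes or 6 of the Cd79 genes. All had at most 14 C1q UMI, monocytes and dendritic cells no Siglech UMI, and 1 cell that met both of their rules was left out.

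UMI were summed per group and genes with at least 50 UMI over both groups were compared as ratios of CPM, with exact conditional binomial intervals for ratios, exact Poisson intervals for levels and Clopper-Pearson intervals for shares, all at 95%. A group at 0 was set to 3 counts for a bound. For values of a gene without its 3 richest members, only their UMI of that gene were left out. The total UMI of all members was kept. For the summed globin level these cells were left out of the total too. Genes of the rules of either group were not counted. Named genes were the 10 at either end of the ratios, given 200 UMI or more over both groups, and the most abundant genes of each list. Some genes are not reported here. Other listed genes, and those of sub-clusters, were named after their values were seen. Sub-clusters came from 2000 variable genes, 30 components, 15 neighbours and Leiden resolution 0.5, without the genes of the rule. The ratio step was tested on simulated data. Tools were scanpy 1.11.5 with igraph 0.11.9 for clustering, scipy 1.17.1 for intervals, and pandas 2.3.3, numpy 2.4.6 and matplotlib 3.10.9 under Python 3.11.15. Alternatives changed the thresholds, member cells, depth, scale, free RNA, count filter and resolution.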

Additional observations from a re-analysis of the deposited data

Results flagged for a closer look

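The rule for C1q macrophages also picked cells that the comparisons did not use. In the CD45-positive library 15 cells deposited as Endothelial (9) or AT2 (6) met it. Their C1q sum ran from 16 through a median of 38 to 104 UMI, and their total from 3136 through 7501 to 21836 UMI, against a median of 4088 UMI in the members. Sftpc, the surfactant gene of AT2 cells, stood at 52829 CPM in them and at 1767 CPM in the members, and the endothelial gene Cldn5 at 798 CPM. Cd74 stood at 19131 CPM and Apoe at 2176 CPM, and Ccl8, Prg4 and Alox15 had no UMI. Whether these droplets held more than 1 cell was not tested.

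In the CD45-negative library 1 immune cell met the rule with 201 C1q UMI (68 of C1qa, 72 of C1qb and 61 of C1qc), more than the 178 of the richest member. Its total of 12113 UMI was also above the highest of the members, 9164.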

How the results depend on the processing

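No paired analysis was possible because each fraction is 1 library. No library could be left out for the same reason. Counts of genes past 2-fold moved mostly with the count filter. Without a filter, 1097 genes were higher and 1473 lower than in alveolar macrophages (14226 compared), 1283 and 726 against monocytes (12306) and 1211 and 737 against dendritic cells (12196). With at least 500 UMI they were 51 and 109 (975 compared), 28 and 21 (247) and 32 and 10 (226). Without the 83 members with more than 2 UMI of another lineage list, 126 genes were higher than in monocytes (of 1286) and 161 than in dendritic cells (of 1081). The genes lower than in dendritic cells were 111 with cells thinned to 2000 UMI. The share of the immune class was 1.5999% with a threshold of 30 C1q UMI and 1.10% without the members carrying another lineage list. At resolution 1.0 there were 9 sub-clusters. Other alternatives were chosen after seeing the data. With no limit on lymphocyte genes (224 cells) the share was 3.01% and the genes lower than in dendritic cells were 112. Without the 14 Prg4 and Alox15 cells, Fn1 reversed, at 0.598 of its level in alveolar macrophages in place of 2.86-fold. Over 33 genes, 1450 ratios were recomputed. Of these, 1246 stayed within their interval, 203 moved beyond it and that of Fn1 over alveolar macrophages reversed. They include ratios under the changed count filter, which cannot alter the ratio of a gene, so those always counted as staying. Only a ratio of at least 2-fold either way could count as reversed. Of the 332 genes higher than in alveolar macrophages, at least 268 were still 2-fold higher under each alternative, of the 254 over monocytes at least 191, and of the 328 over dendritic cells at least 248, each lowest with free RNA subtracted. The cause of these changes was not tested. The 38 dendritic cells and 75 monocytes set the width of the intervals against them, and genes read in few members, such as Cxcl13, cannot be given a level per mouse.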
